A study of Mus musculus with 6 samples.

Results

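Fn1, Prg4, Lama3 and Col4a1 encode proteins of the extracellular matrix, the protein meshwork around cells, and they were examined here in mouse livers after treatment with GW4064. The 4 genes were taken from the annotated table that the authors deposited, in which each had exactly 1 probe set paired with its symbol. They are 4 of the 87 genes that could be named in this data set, and their 4 probe sets are among 22626 on the array other than controls. The genes were selected on these same 6 arrays, because that table lists the probe sets that passed a threshold of 1.5-fold, by the fold the authors computed, and of a low unadjusted p. By the log2 means used here, 15 of its 110 probe sets were under 1.5-fold. Further probe sets of the same genes that did not pass may lie unnamed among the 22626, so each value below is that of 1 selected probe set and not of the gene as a whole. Their differences between the groups are therefore given as a description with no test.

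All mice were adult wild type C57BL/6J animals. The GW4064 group (n = 3) received the synthetic FXR agonist GW4064, and the vehicle group (n = 3) received the carrier alone. FXR (farnesoid X receptor) is the nuclear receptor that senses bile acids. The dose was 100 mg per kg body weight, given 3 times, at 8 am, at 6 pm and again at 8 am, with an overnight fast from the second dose per the study's methods, and liver tissue was collected 2 hours later. One Affymetrix array was hybridized per mouse, and the values are log2 expression levels, so that a difference of 1 is a doubling of the signal.

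Matrix proteins fall into forms that circulate or coat surfaces and forms that are built into fixed sheets. Fibronectin, the product of Fn1, is secreted into plasma by hepatocytes, and together with fibrin it forms the provisional matrix of an injured tissue. Proteoglycan 4 (lubricin), the product of Prg4, is a secreted mucin-like glycoprotein best known as the lubricant of joint surfaces. The laminin alpha 3 chain of Lama3 and the collagen IV alpha 1 chain of Col4a1 are subunits of basement membranes, the thin sheets under epithelia and around vessels. The liver sinusoid is unusual in lacking a continuous basement membrane, and in liver these sheets surround bile ducts and larger vessels.

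The mice of the GW4064 group were not alike. The mean correlation with the vehicle arrays over all tested probe sets was 0.987 for GW4064 replicate 1 and 0.993 for GW4064 replicate 2. For GW4064 replicate 3 it was 0.995, the same as among the vehicle arrays themselves, so this mouse was the closest of the treated animals to vehicle. Array medians lay between 5.87 and 5.89. The log2 difference between the 3' and 5' control probe sets of beta-actin, a sign of RNA integrity, was 0.97 to 1.00 in GW4064 and 0.92 to 1.02 in vehicle livers. None of the 47 cell type marker genes drawn up for hepatocytes, stellate cells, sinusoidal endothelial cells, macrophages, neutrophils and cholangiocytes had a paired probe set. The labelled tissue could not be checked against them, and the part of cell composition in the results below was not tested. In bulk liver, fewer cells of a type and less RNA per cell cannot be told apart.

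The soluble matrix genes were higher and the basement membrane genes were lower in every GW4064 liver than in any vehicle liver. By limma, Fn1 was 2.83-fold and Prg4 4.21-fold higher, whereas Lama3 was 1.97-fold and Col4a1 1.54-fold lower. None of the 4 genes was called changed after adjustment. Over all 22626 probe sets, 0 (0%) had a limma adjusted p under 0.05, with 1985 at an unadjusted p under 0.05, and the methods' t-test gave 0 and 1427. Without GW4064 replicate 3 the adjusted limma count was 70. All 4 genes met the 1.5-fold threshold with an unadjusted p under 0.05, which 0.632% of all probe sets met as higher and 0.619% as lower. All 4 also had no overlap between the groups, as did 6.7% of probe sets in the higher and 7.16% in the lower direction. Because the genes were chosen on this contrast, nothing is read from these counts. All 4 lay beyond the 1.5-fold line, at 0.585 on the log2 scale in either direction, and Col4a1 at -0.62 was the nearest to it.

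**Figure D1:**
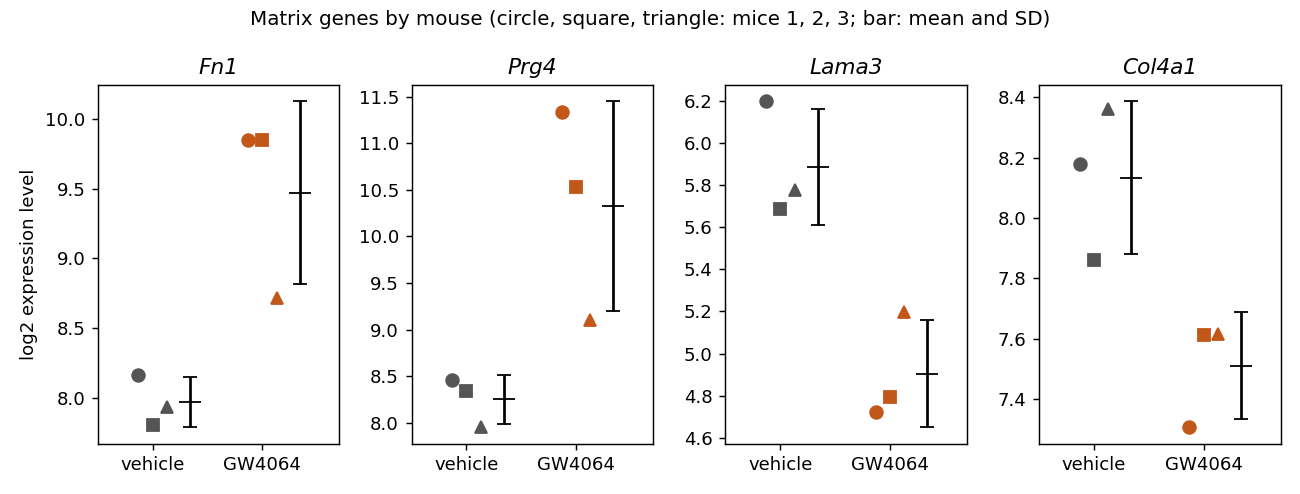
Log2 expression level of each matrix gene (y axis, a separate scale per panel) in the 3 vehicle livers (grey) and the 3 GW4064 livers (orange), with the mean and SD beside the points. The groups do not overlap in any panel, and GW4064 replicate 3 (triangle) is the treated mouse nearest to vehicle for Fn1, Prg4 and Lama3, while for Col4a1 it is level with replicate 2.

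Fn1 (probe set 1437218_at) is on chromosome 1 (band C1-C5). Its log2 level was 8.17, 7.81 and 7.94 in vehicle replicates 1, 2 and 3, and 9.85, 9.85 and 8.72 in GW4064 replicates 1, 2 and 3. GW4064 replicates 1 and 2 stood together at the top, replicate 3 was well below them, and the highest vehicle array was still lower than replicate 3 by 0.55. The means were 7.97 ± 0.18 and 9.47 ± 0.65 (SD, n = 3 each), a difference of 1.499 (SE 0.28). Fn1 was the 29th largest increase of all probe sets. In folds over the vehicle mean, the treated livers were at 3.68, 3.67 and 1.67. The files do not say which splice forms this probe set detects, so the plasma and tissue forms of fibronectin were not told apart.

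Prg4 (probe set 1449824_at), also on chromosome 1 (band G), had the largest response of the 4 genes and also the widest spread. Its log2 level was 8.46, 8.34 and 7.95 in vehicle replicates 1, 2 and 3. It was 11.33, 10.54 and 9.10 in the corresponding GW4064 replicates. The treated mice were far apart from one another, and the lowest of them lay 0.65 above the highest vehicle array. The means were 8.25 ± 0.27 and 10.32 ± 1.13 (n = 3 each), a difference of 2.07 (SE 0.47), the 13th largest increase of all probe sets. Over the vehicle mean, Prg4 was 8.46-fold higher in GW4064 replicate 1, 4.87-fold in replicate 2 and 1.81-fold in replicate 3. The mean fold rested in part on which mice were included: without GW4064 replicate 3 it was 6.42-fold, and without replicate 1 it was 2.97-fold.

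Col4a1 (probe set 1452035_at) on chromosome 8 (band A1.1) was the basement membrane gene with the smaller change. Its log2 level was 8.18, 7.86 and 8.36 in vehicle replicates 1, 2 and 3, and 7.31, 7.61 and 7.61 in GW4064 replicates 1, 2 and 3. GW4064 replicate 1 was the lowest array, the other treated livers were level with each other, and the gap to the lowest vehicle array was 0.25, less than the range among the vehicle livers themselves. The means were 8.13 ± 0.25 and 7.51 ± 0.18 (n = 3 each), a difference of -0.62 (SE 0.15). It ranked 179th among all decreases.

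The collagen IV alpha 1 chain is assembled into trimers with the alpha 2 chain, and the gene of the latter, Col4a2, starts head to head with Col4a1. No probe set was paired with Col4a2, so whether its transcript moved with Col4a1 was not tested. The Col4a1 promoter is shown because the start lies inside a promoter shared with that partner. The promoters of Fn1, Prg4 and Lama3 were not examined. In the RefSeq promoter windows (GRCm38.p6, 300 bases each), the Col4a1 window (chr8:11312777-11313076, minus strand) and that of Col4a2 (chr8:11312555-11312854, plus strand) share 78 bases. The start used for Col4a1, at 11312826, lies past that of Col4a2, at 11312805, so the 5' ends overlap by 22 bases. These bases (chr8:11312805-11312826) are shown on the Col4a1 strand, 5′ to 3′, with the GC box in capitals. The box reads GGGCGG on the opposite strand, that of Col4a2.
Col4a1 and Col4a2 shared start: ttggagacgCCGCCCgcgcact

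The whole Col4a1 window was rich in G and C, with 74% against a median of 52.7% over the 32851 windows of that length, and held 37 CG dinucleotides against a median of 7. It matched the GC box (GGGCGG) 1 time and the CCAAT box (CCAAT) 1 time when both strands were searched. These are found in 35.7% and 37.4% of all windows. It had no match to the TATA box (TATAAA), the nuclear receptor hexamer (AGGTCA) or the FXR inverted repeat IR-1 (AGGTCANTGACCT, which holds that hexamer on both strands). These letters occur in 13.6%, 16.3% and 0.00913% of windows. The match or its absence describes these letters in this window alone.

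The other basement membrane gene, Lama3, had the lowest signal of the group. The gene (probe set 1427512_a_at) is on chromosome 18 (band A), and its mean over the 6 arrays, 5.39, was lower than the median probe set, 5.88, so its values are less certain than those of the other genes. The log2 level was 6.20, 5.68 and 5.77 in vehicle replicates 1, 2 and 3, and 4.72, 4.80 and 5.19 in GW4064 replicates 1, 2 and 3. Vehicle replicate 1 was high among the controls and GW4064 replicate 3 was high among the treated. The gap between the nearest arrays of the groups was 0.49, slightly less than the range among the vehicle livers, 0.51. The means were 5.89 ± 0.27 and 4.90 ± 0.25 (n = 3 each), a difference of -0.98 (SE 0.17), the 55th largest decrease. The suffix of its probe set (_a_at) marks several transcripts of 1 gene, so the transcript variants of Lama3 were not separated.

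**Figure D2:**
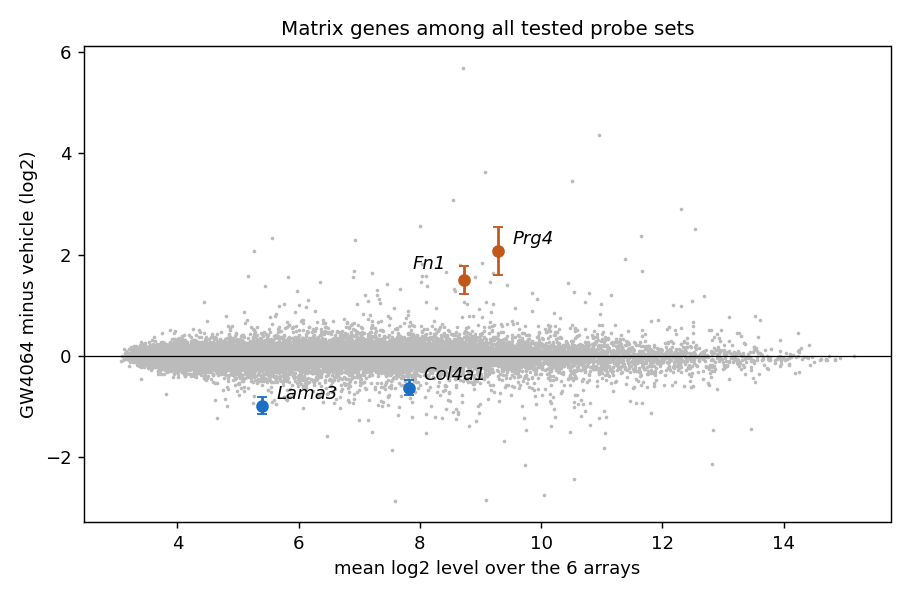
Difference between GW4064 and vehicle (y axis, log2) against the mean log2 level over the 6 arrays (x axis) for all 22626 tested probe sets (grey), with the soluble matrix genes in orange and the basement membrane genes in blue (bars, SE from limma). Fn1 and Prg4 lie at 1.499 and 2.07 among the upper points, Lama3 lies at -0.98 at a low level, and Col4a1 at -0.62 is closest to the bulk of probe sets.

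The soluble and the basement membrane genes were then contrasted within each liver. For each array the shift from the vehicle mean was averaged over Fn1 and Prg4 and over Lama3 and Col4a1, and the latter was subtracted from the former. The result was 0.02, 0.20 and -0.23 in vehicle replicates 1, 2 and 3, and 3.47, 2.88 and 1.40 in GW4064 replicates 1, 2 and 3. The treated livers all lay above the controls but were spread over a range far wider than that of the controls. The GW4064 mean was 2.59 ± 1.07 (n = 3), against an SD of 0.22 in vehicle livers, which corresponds to a 6.01-fold change of the ratio of soluble to basement membrane signal. Without GW4064 replicate 3 it was 9.06-fold. The direction follows from the choice of genes, so only the size and the spread are described.

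The soluble side gave most of this spread. The mean shift of Fn1 and Prg4 was 2.48, 2.08 and 0.80 in GW4064 replicates 1, 2 and 3, and that of Lama3 and Col4a1 was -0.995, -0.80 and -0.60. The order of the mice was the same on both sides, but the soluble shift of replicate 3 was a small part of that of replicate 1, whereas the basement membrane shift was reduced less. The SD among GW4064 livers was 3.63 times that among vehicle livers for Fn1 and 4.24 times for Prg4. For Lama3 and Col4a1 these ratios were 0.93 and 0.70, so the treated livers had an SD no larger than that of the controls. Of all 22626 probe sets, Prg4 had the 63rd largest SD within the GW4064 group and Fn1 the 215th, while Lama3 and Col4a1 were 2397th and 5564th. In the vehicle group the order differed, and Lama3, Prg4, Col4a1 and Fn1 ranked 1432nd, 1598th, 1854th and 4883rd. The ratio of spreads was not tested, since 3 mice per group give little power.

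**Figure D3:**
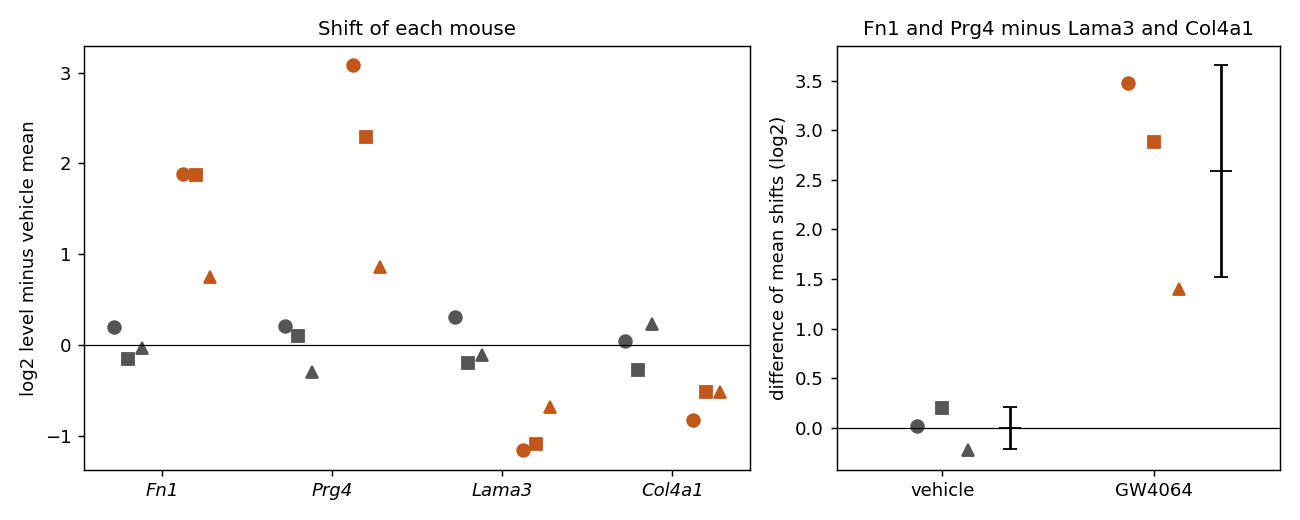
Left, the log2 level of each mouse minus the vehicle mean (y axis) for the 4 matrix genes, with vehicle livers in grey, GW4064 livers in orange and circle, square and triangle for mice 1, 2 and 3. Right, the mean shift of Fn1 and Prg4 minus that of Lama3 and Col4a1 per mouse, with mean and SD, which was 3.47, 2.88 and 1.40 in the treated livers and near 0 in the controls.

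GW4064 replicate 1 was farthest from vehicle for 4 of the 4 genes and replicate 3 was nearest for 4 of the 4. The same held for 83 and 80 of the 110 probe sets in the table of the authors, which were all selected on these arrays. No share over all 22626 probe sets is given, so nothing particular to these genes is read from the counts. For Fn1 the order of replicates 1 and 2, and for Col4a1 that of replicates 2 and 3, rested on differences of under 0.01. With each mouse left out in turn, the difference of Fn1 lay between 1.31 and 1.88 and that of Prg4 between 1.57 and 2.68. Lama3 lay between -1.13 and -0.83, and Col4a1 between -0.76 and -0.51. Without vehicle replicate 3 or GW4064 replicate 1, Col4a1 fell short of 1.5-fold, at 1.42-fold and 1.43-fold lower.

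**Figure D4:**
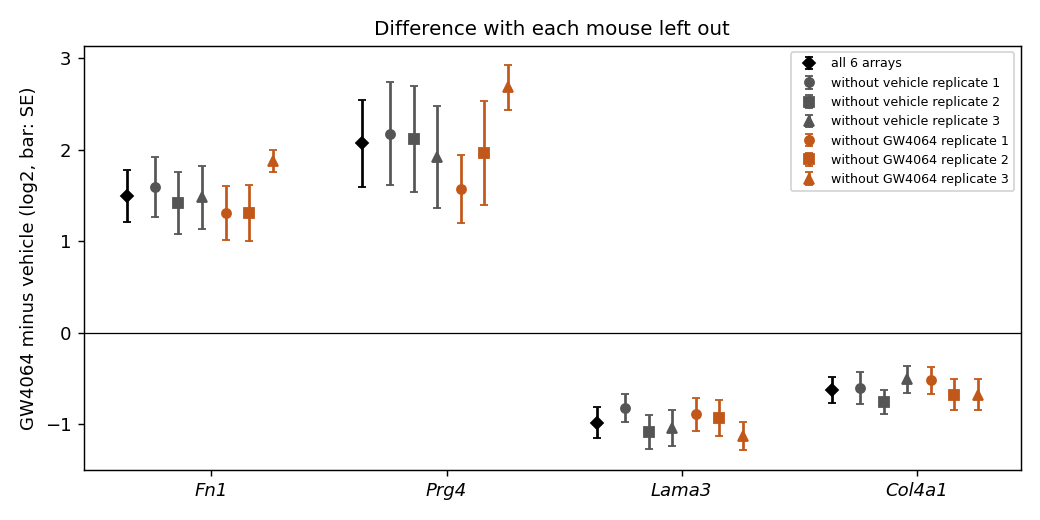
Difference between GW4064 and vehicle on the log2 scale (y axis, bars are SE from limma) for each matrix gene with all 6 arrays (black) and with each vehicle (grey) or GW4064 (orange) mouse left out. No difference reaches 0, and leaving out GW4064 replicate 3 gives the largest values for Fn1 (1.88), Prg4 (2.68) and Lama3 (-1.13).

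Across the 6 arrays the 2 soluble genes varied together. The Pearson correlation of Fn1 and Prg4 was 0.97, and 0.90 once the mean of each group was removed. The latter came mainly from the GW4064 group, where replicate 3 was low for both genes, while in vehicle replicate 2 the shifts had opposite signs (-0.16 for Fn1 and 0.09 for Prg4). Lama3 and Col4a1 correlated at 0.88, and at 0.43 after the group means were removed. Between a soluble and a basement membrane gene the correlations were -0.81 to -0.90 over all arrays and -0.17 to -0.56 after removal of the means. The points share their arrays and the difference between the groups that chose the genes, and with 6 arrays the values are descriptive.

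Of the 83 other genes with a paired probe set, those with the pattern most like Fn1 were Saa1 (r = 0.997), Saa4 (0.995) and Saa2 (0.992), the serum amyloid A genes of the acute phase response. The transcripts of Saa1 and Saa2 are so alike that their probe sets may not fully separate them. The genes most like Prg4 were Sec11c (0.996), which encodes a subunit of the signal peptidase of the secretory pathway, Lcn2 (0.989), an acute phase gene, and Derl3 (0.988), which acts in the disposal of misfolded proteins from the endoplasmic reticulum. Their differences from vehicle were 0.59 (SE 0.15) for Sec11c, 5.69 (SE 1.25) for Lcn2 and 1.05 (SE 0.20) for Derl3, so amplitudes differed widely. All 83 genes were selected on the same arrays and contrast, so a high r over the 6 arrays was largely built in. Once the group means were removed, r with Fn1 was 0.984 for Saa1, 0.976 for Saa4 and 0.992 for Saa2. With Prg4 it was 0.985 for Sec11c, 0.961 for Lcn2 and 0.972 for Derl3. The named genes were picked by r over the same arrays, which also favours a high r here. No such r over all probe sets was computed, so nothing is read from these values.

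For Lama3 the nearest genes were Elovl3 (0.973), which lengthens fatty acid chains, Igfbp1 (0.95), a secreted binding protein of insulin-like growth factors, and Ahnak (0.95), a large scaffold protein. For Col4a1 they were Ahnak (0.968), Septin4 (0.964), a cytoskeletal GTP-binding protein, and Igfbp1 (0.958). Ahnak differed by -0.66 (SE 0.10), close to Col4a1, and Igfbp1 by -1.51 (SE 0.35). These genes too were selected on this contrast. After removal of the group means, Ahnak correlated at 0.94 with Col4a1 and at 0.64 with Lama3. Elovl3 and Igfbp1 then correlated with Lama3 at 0.87 and 0.84, and Septin4 and Igfbp1 with Col4a1 at 0.85 each. Such likeness over all 6 arrays was not rare. At r of at least 0.95 there were 99 other probe sets for Fn1 and 190 for Prg4, named or not. For Lama3 and Col4a1 there were 68 and 66. No such count was made after removal of the group means.

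The wider matrix was covered only through these 4 genes. Lists of 103 matrix genes in 5 roles were drawn up, and 4 of the 103 had a paired probe set. They were 2 of 19 soluble and provisional matrix genes (Fn1 and Prg4, both higher) and 2 of 23 basement membrane genes (Lama3 and Col4a1, both lower). The 16 interstitial collagens and proteoglycans, the 24 matrix enzymes and inhibitors and the 21 matrix receptors had none. A gene without a paired probe set was not analysed here, and nothing can be said of its level. Whether other soluble or basement membrane genes followed the same division was therefore not tested.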

How the data were processed

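The authors deposited log2 expression levels per probe set, analysed with Affymetrix Power Tools per the study's methods. No source used here gives the summarisation or the normalization between arrays. The array medians lay between 5.87 and 5.89, and the values were used as deposited. The methods name Mouse Gene 1.0 ST arrays, but the header of the authors' annotated table names Mouse430A_2, whose type of probe set identifiers the values carry. That table also holds the fold and direction of the authors' own comparison, which were not used. It was the only source of gene names, with 99 of 110 probe sets paired with 1 symbol, and Entrez identifiers updated symbols through RefSeq (GRCm38.p6).

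Groups and replicate numbers came from the sample titles. Both groups were fitted in limma 3.58.1 (R 4.3.3) across 22626 probe sets, with 64 controls left out, no filter on dim probe sets, and Benjamini-Hochberg adjustment over all of them. Differences are GW4064 minus vehicle with moderated SE. The fit was tested on simulated data. An exact permutation test of 3 against 3 has 0.1 as its smallest two-sided p. The number of arrays limits the precision.

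The members and gene lists were chosen with earlier results of these data known. The rule for named genes took the 4 members and, for each, the 3 paired genes of highest Pearson correlation over the 6 arrays, with the probe set of highest mean where a gene had several. It also took up to 4 paired genes of each list, which added none. Alternatives were other normalizations, a filter on dim probe sets, other tests, array weights, a replicate block and leaving out each mouse.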

Additional observations from a re-analysis of the deposited data

How the results depend on the processing

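The differences of Fn1, Prg4, Lama3 and Col4a1 and the contrast of soluble with basement membrane genes kept their direction and moved by less than the spread between mice under quantile normalization, median centring, array weights (differences only), a replicate block (differences only) and omission of each mouse. Since no gene overlapped between the groups, leaving out or weighting arrays could not turn a direction. Omission of 1 of the 3 mice of a group could not move a value by more than that spread. A replicate block cannot change a difference in this balanced design, and median centring cancels from the contrast. These outcomes were fixed in advance. Median centring moves every difference by the same amount, set by the array medians, which lay between 5.87 and 5.89. Only quantile normalization and array weights were free to move the sizes further. With array weights Col4a1 was 1.49-fold lower, and the contrast lay between 2.14 and 3.18 without 1 mouse. Each gene had 1 named probe set, so averaging the probe sets of a gene gave no other value, and any unnamed ones were not analysed here, and the filter on dim probe sets would remove Lama3.

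At an adjusted p under 0.05, 0 probe sets passed with all 6 arrays in every test run, and 0 to 70 passed without 1 array, the 70 without GW4064 replicate 3. At 1.5-fold and an unadjusted p under 0.05, 283 passed, and 97 by the methods' t-test, which does not share the spread between probe sets. Between 158 and 573 passed without 1 array, lowest without GW4064 replicate 1 and highest without replicate 3; the cause was not tested. The count without overlap was 3137, 1904 without dim probe sets, of which fewer were tested, and 4871 to 6306 without 1 array, where fewer arrays must part. A replicate block gave 0 adjusted and 304 unadjusted calls, and the SE of Prg4 was 0.30 in place of 0.47. Same-numbered mice correlated at -0.00194, 0.05 and -0.03 in their deviations, and 2 of 6 arrays correlated best with their own number, so the numbers were not taken as pairs.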
